A study of Mus musculus with 18 samples.

Results

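The aryl hydrocarbon receptor genes described here are 8 named genes, Cyp1a1, Cyp1b1, Ahr, Ahrr, Arnt, Tiparp, Nqo1 and Inmt, of which 7 matched a row by symbol among the 12988 gene rows used, and Ahrr was not analysed here. Cyp1a1 and Inmt were selected on measured values, their levels in FPKM, which differed between infarcted and sham-operated hearts in earlier results of these data, and the other members were taken as genes of the same pathway. For this reason the differences between infarcted and sham hearts are given below as a description, with no test, for every member. The aryl hydrocarbon receptor, encoded by Ahr, is a ligand-activated transcription factor of the bHLH-PAS family that waits in the cytoplasm with HSP90 and, once bound by ligands such as dioxins, polycyclic hydrocarbons or tryptophan-derived indoles, enters the nucleus and pairs with ARNT. The pair binds short response elements and induces Cyp1a1, Cyp1b1, Tiparp, Ahrr and, with NRF2, Nqo1. In the heart and other vascular beds, Cyp1a1 is best known as an inducible enzyme of the endothelium. Inmt encodes indolethylamine N-methyltransferase, an enzyme that methylates tryptamine and related amines. It is not one of the classical receptor targets.

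The libraries are RNA-seq of whole mouse hearts. Neonatal mice received a subcutaneous injection of adeno-associated virus of serotype 9 (AAV9), either with the mouse Fgf17 gene (AAV-FGF17) or as a control vector. At 8 weeks of age they underwent myocardial infarction (MI), in which the left anterior descending coronary artery was tied off permanently, or a sham operation without the tie. The 5 groups are sham with control vector (n = 4 libraries), MI day 3 with control vector (n = 4), MI day 3 with AAV-FGF17 (n = 4), MI day 14 with control vector (n = 3) and MI day 14 with AAV-FGF17 (n = 3). Every group therefore carries an AAV9 vector, and no sham group with AAV-FGF17 was analysed here. The promoter that drives Fgf17, the strain, the sex and the day on which sham hearts were collected are not given in the sources used here. Whether each library is a different animal is not stated in the labels. A p-value here therefore measures only the spread between libraries, part of which may be technical.

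Values are FPKM, a level corrected for gene length and library total but not carrying the read depth, which is unknown. Total FPKM per library was 301085 to 362004. The 13 mitochondrially encoded genes took 35.6 to 41.7% of it in sham libraries and 18.8 to 35.1% after MI. Fgf17 was listed at 0 in sham hearts, reached at most 0.38 FPKM in MI hearts with control vector and lay between 45.3 and 93.4 FPKM in all hearts labelled AAV-FGF17. All 10 cardiomyocyte markers had a row and their summed level was 8060 to 12600 FPKM, none at 0 in any whole group, as the heart label calls for. Log2 changes below are on the log2(FPKM + 0.5) scale with their standard error (SE), which understates changes of genes near 0.5 FPKM or below, and adjusted p-values are from limma over the 12052 tested genes, with a threshold of 0.05.

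Cyp1a1 was the member with the widest range. It was near 13 FPKM in sham hearts, at most 1.74 FPKM in MI hearts with control vector at either day and in MI hearts with AAV-FGF17 at day 3, and 8.16 to 29.2 FPKM in MI hearts with AAV-FGF17 at day 14, overlapping the sham range of 10 to 19.5 FPKM with 1 library within it, 1 above and 1 below. Inmt was likewise high in sham hearts and in day 14 hearts with AAV-FGF17 and low in the other groups, with a smaller range. Cyp1b1 and Tiparp were higher in MI hearts than in sham hearts, opposite to Cyp1a1, and Nqo1 was lower. The receptor gene Ahr and its partner Arnt stayed within narrow ranges that overlapped in all 5 groups. Between vectors, Cyp1a1 and Inmt rose with AAV-FGF17 at day 14, and no member passed the threshold at day 3.

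Ahr lies on chromosome 12, 35497974 to 35535038 on the minus strand of GRCm38. Its levels were 3.81, 3.43, 2.58 and 3.10 FPKM in sham libraries 1, 2, 4 and 5, and 2.80, 2.26, 3.35 and 2.11 FPKM in MI day 3 control libraries 1 to 4. They were 2.51, 3.31, 2.61 and 3.35 FPKM in MI day 3 AAV-FGF17 libraries 1 to 4. At day 14 they were 3.44, 2.84 and 1.91 FPKM in control libraries 1, 2 and 4 and 3.70, 2.41 and 2.73 FPKM in AAV-FGF17 libraries 1, 3 and 4. No group stood apart, and every pair of neighbours in the order of group means overlapped. AAV-FGF17 against control vector gave a log2 change of 0.15 ± 0.169 at day 3 (95% interval -0.21 to 0.51, adjusted p = 0.9) and 0.11 ± 0.195 at day 14 (-0.31 to 0.52, adjusted p = 0.77). Those intervals hold no change of the size seen for Cyp1a1 at day 14. An antisense long noncoding gene, Gm48236, overlaps Ahr, and whether the counting used strand is not given in the sources used here, so reads from the pair cannot be told apart.

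Arnt, on chromosome 3 at 95434388 to 95497240 on the plus strand, encodes ARNT, the partner shared by the receptor and the hypoxia-inducible factors. Its group means were 4.08 ± 0.874 FPKM in sham hearts (SD, n = 4), 4.22 ± 0.298 and 4.67 ± 1.17 FPKM at day 3 with control vector and AAV-FGF17 (SD, n = 4 each), and 4.46 ± 0.247 and 4.35 ± 0.351 FPKM at day 14 (SD, n = 3 each). All neighbouring groups overlapped. The log2 change with AAV-FGF17 was 0.11 ± 0.14 at day 3 (adjusted p = 0.916) and -0.03 ± 0.162 at day 14 (adjusted p = 0.922), with 95% intervals of -0.19 to 0.4 and -0.38 to 0.31. Its small difference from sham hearts at day 3 in control hearts, 0.06 ± 0.14 log2, took the other sign under median-of-ratios scaling, at -0.21. The processed pseudogene Gm42672 lies within the Arnt span on the same strand, which leaves reads that match both uncertain.

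Cyp1a1 encodes the cytochrome P450 enzyme that oxidises polycyclic aromatic hydrocarbons and is the most widely used readout of receptor activity. It lies on chromosome 9, 57687928 to 57703824 on the plus strand, and no other annotated gene overlaps it. Its levels were 10.8, 13, 19.5 and 10 FPKM in sham libraries 1, 2, 4 and 5. In MI hearts with control vector they were 1.12, 0.299, 1.59 and 0.480 FPKM in day 3 libraries 1 to 4, and 1.45, 0.415 and 1.74 FPKM in day 14 libraries 1, 2 and 4. All sham libraries lay above all of these, and the MI groups of the control vector overlapped each other.

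With AAV-FGF17, Cyp1a1 was at 0.237, 0.271, 0.504 and 0.280 FPKM in day 3 libraries 1 to 4. It was at 10.3, 29.2 and 8.16 FPKM in day 14 libraries 1, 3 and 4. The day 3 values overlapped those of the control vector at their upper end. The day 14 values overlapped those of sham hearts and no MI group. As group means, the levels were 13.3 ± 4.30 FPKM in sham hearts (SD, n = 4) and 15.9 ± 11.6 FPKM in day 14 hearts with AAV-FGF17 (SD, n = 3), which is 119% of the sham mean. The same quantity was 6.55% of the sham mean at day 3 and 9.04% at day 14 with control vector, and 2.43% at day 3 with AAV-FGF17.

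**Figure D1:**
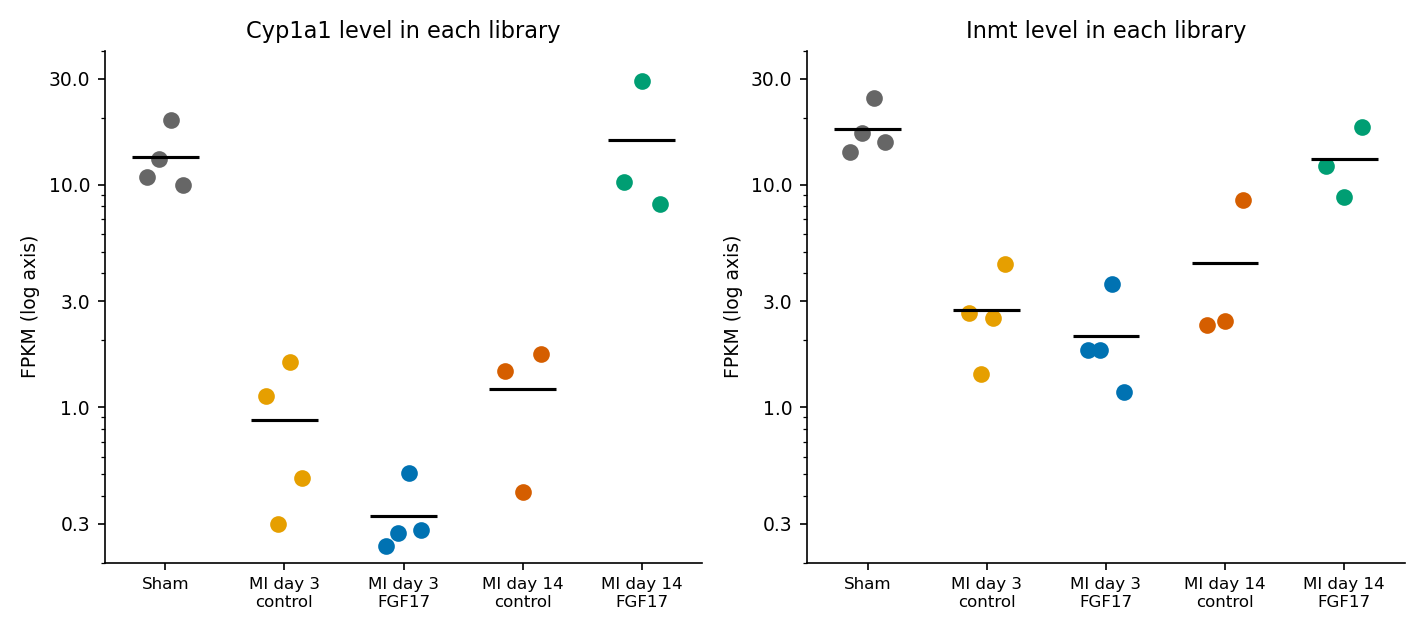
FPKM of Cyp1a1 (left) and Inmt (right) on log axes in each of the 18 libraries by group, with black lines at the group means. For both genes the sham libraries and the day 14 AAV-FGF17 libraries are the high ones, and the day 14 control library with 8.57 FPKM of Inmt lies close to the lowest AAV-FGF17 library at 8.78 FPKM.

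At day 14, Cyp1a1 rose with AAV-FGF17 by 3.15 ± 0.434 log2 over the control vector (95% interval 2.23 to 4.06, adjusted p = 0.00128). The control libraries of this comparison were part of the choice of Cyp1a1, which took it for being low in them, so this p-value is not independent of that choice, and the same holds for the comparison of the days' effects and for Inmt below. All AAV-FGF17 libraries lay above all control libraries, by a ratio of group means of 13.2. An exact two-sided permutation test over the 3 and 3 libraries gave p = 0.1, the smallest it can give. Without AAV-FGF17 library 3, the highest, the change was 2.61 (adjusted p = 0.00655). At day 3 the change was -0.64 ± 0.376 (95% interval -1.44 to 0.15, adjusted p = 0.714, exact permutation p = 0.0857 with a smallest possible value of 0.0286). The difference between the day 14 and day 3 effects was 3.79 ± 0.574 log2 (adjusted p = 0.0265). That call was lost without AAV-FGF17 library 3 of day 14 (3.25, adjusted p = 0.0734), control library 2 of day 14 (3.39, adjusted p = 0.0587), AAV-FGF17 library 4 of day 3 (3.77, adjusted p = 0.0559) or control library 1 of day 3 (3.68, adjusted p = 0.0517), and with FPKM rescaled to a common total (4.46, adjusted p = 0.0546). With the library number as a replicate block in the fit it was lost too (3.36, adjusted p = 0.0519).

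Over time, Cyp1a1 rose from day 3 to day 14 in AAV-FGF17 hearts by 4.11 ± 0.406 log2 (adjusted p = 7.19e-07), the largest rise among all tested genes in that comparison. In control vector hearts the same step was 0.32 ± 0.406 log2 (95% interval -0.54 to 1.17, adjusted p = 0.607). Control vector libraries took part in the choice of Cyp1a1, and whether AAV-FGF17 libraries did is not stated in the sources used here. These p-values are therefore not taken as independent of that choice, and the same holds for the time steps of Inmt below. Against sham hearts, and with no test, the difference was -3.39 ± 0.376 log2 at day 3 and -3.07 ± 0.406 at day 14 with control vector, -4.03 ± 0.376 at day 3 with AAV-FGF17 and 0.07 ± 0.406 at day 14 with AAV-FGF17. The last value was -0.47 without AAV-FGF17 library 3. These comparisons share the sham libraries.

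Cyp1b1, on chromosome 17 at 79706953 to 79715041 on the minus strand, encodes a related P450 that metabolises oestrogens and polycyclic hydrocarbons and, unlike Cyp1a1, is expressed in mesenchymal cells. Its levels were 3.42, 5.87, 3.34 and 3.65 FPKM in sham libraries 1, 2, 4 and 5. They were 11.4, 11.1, 17 and 8.96 FPKM at day 3 with control vector and 12.2, 16.3, 10.2 and 14.6 FPKM at day 3 with AAV-FGF17. At day 14 they were 14.6, 10.9 and 10.8 FPKM in control libraries 1, 2 and 4 and 9.82, 6.18 and 7.80 FPKM in AAV-FGF17 libraries 1, 3 and 4. Every MI library lay above every sham library, and at day 14 the AAV-FGF17 libraries lay between the sham and the control libraries with no overlap on either side.

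Against sham hearts, the Cyp1b1 difference with control vector was 1.46 ± 0.205 log2 at day 3 and 1.48 ± 0.221 at day 14, in the opposite direction to Cyp1a1. The day 14 change with AAV-FGF17, -0.59 ± 0.236 log2 (95% interval -1.09 to -0.09), missed the threshold (adjusted p = 0.121). From day 3 to day 14, Cyp1b1 fell by 0.71 on the log2 scale in AAV-FGF17 hearts (SE 0.221, adjusted p = 0.0172). This call was lost without AAV-FGF17 library 2 of day 3 (adjusted p = 0.0522) or library 3 of day 14 (adjusted p = 0.0947). In control vector hearts the step was 0.03 ± 0.221 log2 (adjusted p = 0.943).

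Most fibroblast markers, like Cyp1b1, were higher in MI hearts than in sham hearts. From day 3 to day 14 with control vector, where Cyp1b1 held level, 7 rose and 1 fell (median 0.74 log2, 29.5% of all genes passing). With AAV-FGF17, where Cyp1b1 fell, 3 rose and 3 fell (median -0.05 log2, 38.7% of all genes passing). The mean sum there went from 1390 to 1520 FPKM, with Gsn going from 220 to 620 FPKM and Col3a1 from 324 to 186 FPKM. The summed level of the 12 fibroblast markers, all with a row and none at 0 in any whole group, was 647 to 723 FPKM in sham libraries, 1270 to 1740 FPKM at day 3 with control vector and 1260 to 1580 FPKM with AAV-FGF17. At day 14 it was 1640 to 1950 FPKM with control vector and 1340 to 1650 FPKM with AAV-FGF17. The part of fibroblast content in the Cyp1b1 values was not tested. In whole-heart RNA, fewer cells of a type and less RNA per cell cannot be told apart.

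Tiparp, on chromosome 3 at 65528410 to 65555518 on the plus strand, encodes an ADP-ribosyltransferase that is induced by the receptor and in turn represses it. Its levels were 3.88, 5.66, 4.08 and 5.32 FPKM in sham libraries 1, 2, 4 and 5, and 6.42 to 8.86 FPKM over the 8 libraries of day 3. At day 14 they were 8.35, 6.89 and 6.58 FPKM in control libraries 1, 2 and 4 and 6.16, 6.39 and 4.30 FPKM in AAV-FGF17 libraries 1, 3 and 4. Control libraries of both days lay above all sham libraries, and the AAV-FGF17 libraries of day 14 overlapped sham. The difference from sham with control vector was 0.65 ± 0.134 log2 at day 3 and 0.58 ± 0.144 at day 14 (0.37 and 0.33 with median-of-ratios scaling). With AAV-FGF17 at day 14 it was 0.22 ± 0.144, and -0.01 with that scaling. The vector comparison at day 14 was -0.36 ± 0.154 log2 (adjusted p = 0.15), and the step from day 3 to day 14 in AAV-FGF17 hearts was -0.35 ± 0.144 (adjusted p = 0.0674), so neither passed. The antisense pseudogene 4931440P22Rik overlaps Tiparp and its reads cannot be told apart without strand.

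Nqo1, on chromosome 8 at 107388225 to 107403206 on the minus strand, encodes a quinone reductase that answers to both the receptor and NRF2. It was the most highly expressed member, at 51.7, 54.3, 35.5 and 48.4 FPKM in sham libraries 1, 2, 4 and 5. It was at 18.7 to 34.5 FPKM over the 4 day 3 control libraries, 25.3 to 33.3 FPKM with AAV-FGF17, 21.9 to 25.4 FPKM in the 3 day 14 control libraries and 24.3 to 32.2 FPKM with AAV-FGF17. All MI libraries lay below all sham libraries. The difference from sham was -0.87 ± 0.164 log2 at day 3 and -0.99 ± 0.177 at day 14 with control vector, and -0.69 ± 0.164 and -0.69 ± 0.177 with AAV-FGF17. The vector comparisons were 0.17 ± 0.164 log2 at day 3 (adjusted p = 0.876) and 0.30 ± 0.19 at day 14 (95% interval -0.1 to 0.7, adjusted p = 0.335). Unlike Cyp1a1 and Inmt, Nqo1 in day 14 AAV-FGF17 hearts did not overlap sham.

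**Figure D2:**
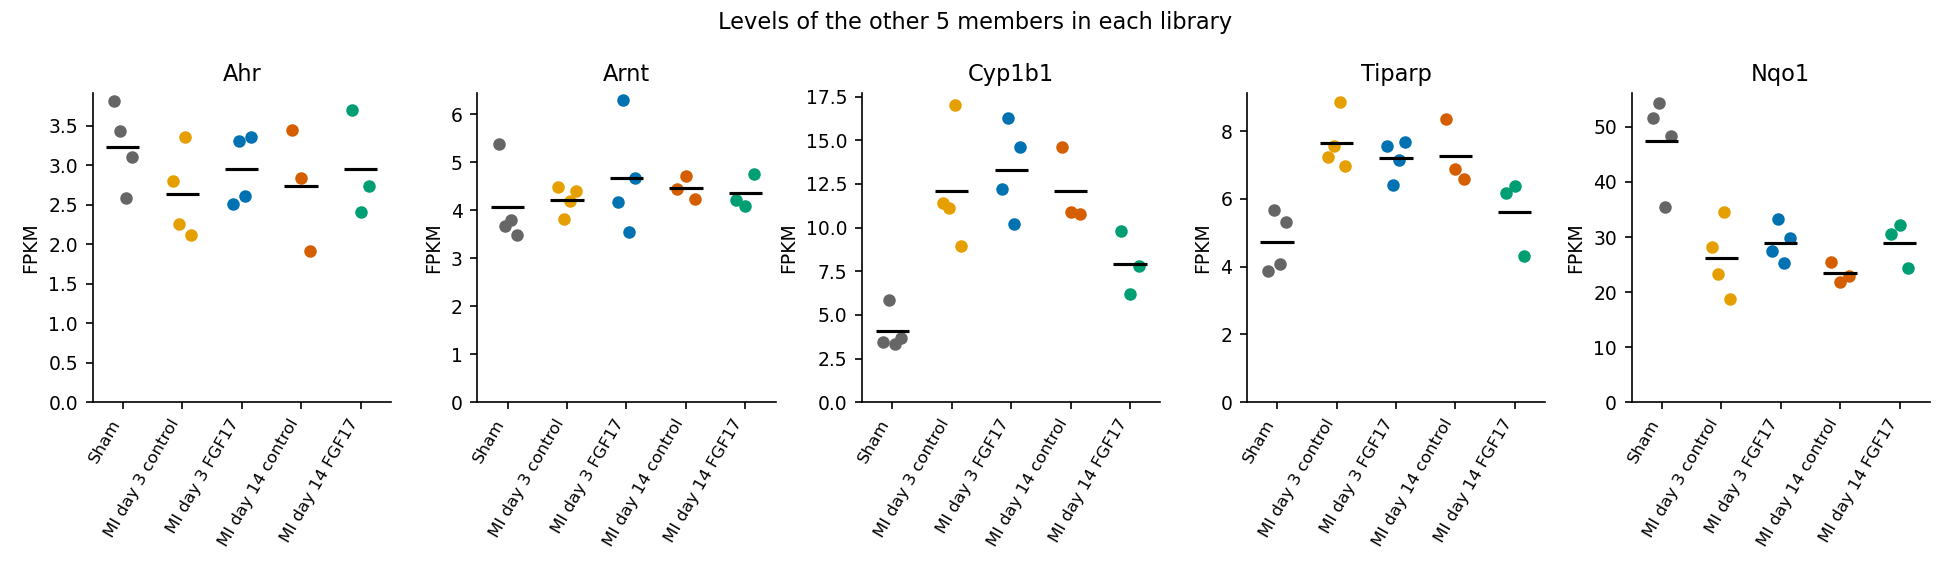
FPKM of Ahr, Arnt, Cyp1b1, Tiparp and Nqo1 in each of the 18 libraries by group on linear axes from 0, with black lines at the group means. Ahr and Arnt overlap in all groups, Cyp1b1 is lowest in sham hearts and Nqo1 is highest there.

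Inmt lies on chromosome 6, 55170626 to 55175043 on the minus strand, with no overlapping gene. Its levels were 14.1, 17.1, 24.6 and 15.6 FPKM in sham libraries 1, 2, 4 and 5. With control vector they were 2.66, 1.41, 2.52 and 4.39 FPKM in day 3 libraries 1 to 4 and 2.35, 2.45 and 8.57 FPKM in day 14 libraries 1, 2 and 4. With AAV-FGF17 they were 1.80, 1.81, 3.59 and 1.17 FPKM at day 3 and 12.2, 8.78 and 18.1 FPKM in day 14 libraries 1, 3 and 4. The day 14 AAV-FGF17 libraries overlapped sham and lay above every other MI library, the nearest being day 14 control library 4.

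Inmt rose with AAV-FGF17 at day 14 by 1.62 ± 0.425 log2 (95% interval 0.72 to 2.52, adjusted p = 0.0252), from 4.45 ± 3.56 to 13 ± 4.74 FPKM (SD, n = 3 each). The call was lost with only the groups compared in the fit (adjusted p = 0.101), and without AAV-FGF17 library 4 (adjusted p = 0.0937), control library 1 (adjusted p = 0.147) or control library 2 (adjusted p = 0.107). With the library number as a replicate block in the fit it was lost too (1.46, adjusted p = 0.0523). At day 3 the change was -0.32 ± 0.368 (adjusted p = 0.9), and the difference of the vector effects between days, 1.94 ± 0.562, missed the threshold (adjusted p = 0.131), though it passed without day 14 control library 4 (2.49, adjusted p = 0.0229). From day 3 to day 14 Inmt rose by 2.40 ± 0.398 log2 in AAV-FGF17 hearts (adjusted p = 0.000156), against 0.46 ± 0.398 in control vector hearts (adjusted p = 0.418). The untested differences from sham were -2.55 ± 0.368 at day 3 and -2.08 ± 0.398 at day 14 with control vector, and -2.87 ± 0.368 and -0.47 ± 0.398 with AAV-FGF17. Without control library 4, the day 14 value was -2.63.

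Counted over the 7 members with a row, all of which entered the test, 0 passed with AAV-FGF17 at day 3 (limma, and 0 at an unadjusted p under 0.05), where 0.232% of all tested genes passed. At day 14, 2 members rose and 0 fell, and 9.62% of all genes passed (3.63% higher and 5.98% lower). From day 3 to day 14 the count was 0 with control vector (limma, and 0 at an unadjusted p under 0.05), where 29.5% of genes passed. In AAV-FGF17 hearts 2 members rose and 1 fell, with 38.7% of genes passing (16.2% higher and 22.5% lower). The difference between vector effects passed for 1 member, Cyp1a1, and for 0.365% of genes. The members that rose in these comparisons were Cyp1a1 and Inmt, which were chosen for their levels in these data. Their counts are therefore not independent of that choice, and the shares of all genes beside them are a description. The median change of the members was 0.11 log2 for either vector comparison, beside -0.03 and -0.04 for all tested genes.

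**Figure D3:**
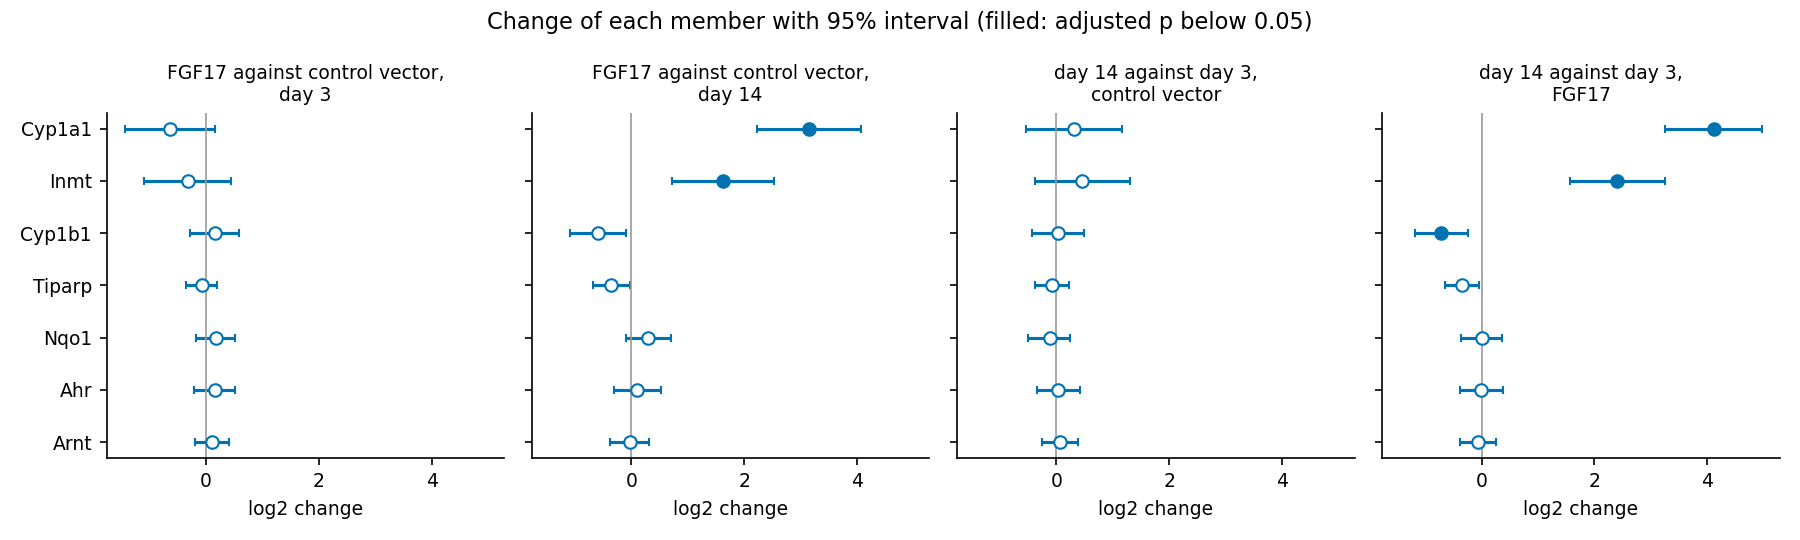
Log2 change of each of the 7 members on the log2(FPKM + 0.5) scale, with 95% intervals, for the vector comparisons at each day and the day 14 against day 3 comparisons in each vector; filled points have a limma adjusted p below 0.05. Cyp1a1 and Inmt lie to the right of 0 in the day 14 vector comparison and in the AAV-FGF17 time comparison, where Cyp1b1 lies to the left.

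The medians of the cardiomyocyte markers lay in the same direction as Cyp1a1 and Inmt. Of the 10, all with a row and none at 0 in any whole group, 1 rose and 5 fell against sham with control vector at each day, with medians of -0.48 and -0.38 log2 beside 0.25 over all genes at both days. Among all genes, 45.9% passed higher and 15% lower at day 3, and 41% and 9% at day 14. After median-of-ratios scaling, 0 markers rose and 9 fell at day 3, and 1 rose and 7 fell at day 14. With AAV-FGF17 at day 14, 2 rose and 1 fell against control vector (4 and 1 after median-of-ratios scaling), where 9.62% of all genes passed. The median of the markers in that comparison was 0.31 log2, beside -0.04 over all genes. The median against sham was then 0.01, beside 0.21 over all genes. Myh6, the adult myosin heavy chain gene, averaged 1760 FPKM in sham hearts, 972 and 1090 FPKM at day 3 with control vector and AAV-FGF17, and 1190 and 1810 FPKM at day 14. Nppa, in the same list, went the other way, at 1660, 2290, 2070, 3080 and 1750 FPKM in the same order of groups. Actc1 group means stayed between 2590 and 2900 FPKM. The summed cardiomyocyte level was 11100 to 11800 FPKM in sham libraries, 8060 to 10300 and 8980 to 10600 FPKM at day 3, and 10700 to 11300 and 10400 to 12600 FPKM at day 14, and its part in the Cyp1a1 and Inmt values was not tested.

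The summed level of the 18 endothelial markers, all with a row and none at 0 in any whole group, was 610 to 653 FPKM in sham libraries, 567 to 719 FPKM at day 3 with control vector and 573 to 687 FPKM with AAV-FGF17. At day 14 it was 896 to 1010 FPKM with control vector and 732 to 800 FPKM with AAV-FGF17, the opposite order to Cyp1a1 for the sum. Single markers differed. Against sham at day 3 with control vector, 5 rose and 6 fell (45.9% of all genes higher and 15% lower). After median-of-ratios scaling, 0 rose and 8 fell. Between vectors at day 14, 0 rose and 2 fell (9.62% of all genes passing). Means there with control vector and AAV-FGF17 were 231 and 183 FPKM for Fabp4, but 46.6 and 57.2 FPKM for Rgcc. Cyp1a1 per 1000 FPKM of the endothelial sum was 21.2 ± 7.34 in sham hearts (SD, n = 4), 1.36 ± 0.855 and 0.515 ± 0.15 at day 3 with control vector and AAV-FGF17 (SD, n = 4 each), and 1.28 ± 0.757 and 21.1 ± 16.3 at day 14 (SD, n = 3 each). Inmt per 1000 FPKM of the fibroblast markers was 26.5 ± 6.83 in sham hearts (SD, n = 4), and 2.62 ± 2.26 and 8.44 ± 2.28 at day 14 with control vector and AAV-FGF17 (SD, n = 3 each). These ratios are descriptions and were not tested.

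**Figure D4:**
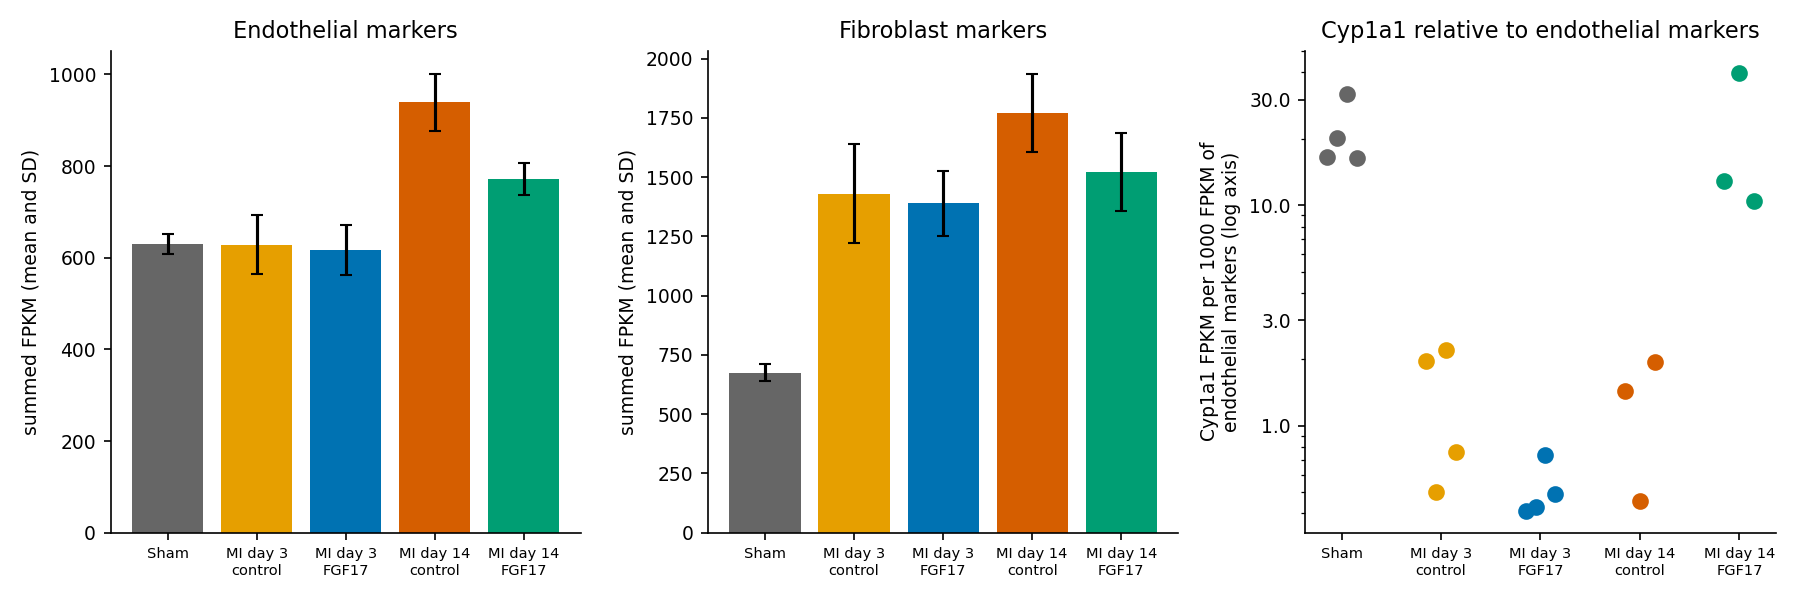
Summed FPKM of the 18 endothelial and the 12 fibroblast markers by group (bars, mean; error bars, SD over 3 or 4 libraries) and Cyp1a1 FPKM per 1000 FPKM of the endothelial markers in each library (points, log axis). The endothelial sum is highest in day 14 control hearts, at 939 FPKM on average, where Cyp1a1 per 1000 FPKM of it is 1.28.

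Lung tissue, which expresses both Cyp1a1 and Inmt, was looked for through 8 lung epithelial markers, of which 3 had a row. Their sum was 0 to 4.83 FPKM in sham libraries, 0 in all day 3 libraries, 0 to 4.90 FPKM at day 14 with control vector and 0 to 20.4 FPKM with AAV-FGF17. The surfactant gene Sftpc was at 18.3 FPKM in day 14 AAV-FGF17 library 1 and listed at 0 in libraries 3 and 4 of that group, whose Cyp1a1 was 29.2 and 8.16 FPKM and whose Inmt was 8.78 and 18.1 FPKM. In day 14 control library 2, Sftpc was at 4.68 FPKM and Cyp1a1 at 0.415 FPKM. In sham hearts Sftpc was listed at 0 in every library, and the club cell gene Scgb1a1 at 4.83 and 3.46 FPKM in libraries 1 and 2. Without AAV-FGF17 library 1, the day 14 vector change was 3.34 log2 for Cyp1a1 (adjusted p = 0.00232) and 1.63 for Inmt (adjusted p = 0.0415). The part of lung tissue in the Cyp1a1 and Inmt values was not tested.

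Promoter windows from the RefSeq table (GRCm38.p6, 250 bases before to 50 after the start site) matched 7 of the 8 members. They were searched for the core of the receptor's response element, GCGTG, on both strands (CACGC on the reverse), letters that are also a form of the core of the hypoxia response element and so are not specific to the receptor. The motif was in 5 of the 7 windows and in 32.4% of 32851 promoters of the same length. The windows of Cyp1a1 and Inmt, which rose together at day 14, and of Cyp1b1 and Tiparp, which lay in the opposite direction to them against sham, are shown 5′ to 3′ with the motif in capitals. They lie at chr9:57697363-57697662 (plus strand), chr6:55174941-55175240 (minus strand), chr17:79715012-79715311 (minus strand) and chr3:65528197-65528496 (plus strand).
Cyp1a1: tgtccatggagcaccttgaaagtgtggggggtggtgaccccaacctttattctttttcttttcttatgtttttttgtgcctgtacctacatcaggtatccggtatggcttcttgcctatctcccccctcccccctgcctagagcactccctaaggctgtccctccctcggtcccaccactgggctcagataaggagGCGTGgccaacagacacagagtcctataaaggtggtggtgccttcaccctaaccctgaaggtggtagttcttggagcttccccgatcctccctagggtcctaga
Inmt: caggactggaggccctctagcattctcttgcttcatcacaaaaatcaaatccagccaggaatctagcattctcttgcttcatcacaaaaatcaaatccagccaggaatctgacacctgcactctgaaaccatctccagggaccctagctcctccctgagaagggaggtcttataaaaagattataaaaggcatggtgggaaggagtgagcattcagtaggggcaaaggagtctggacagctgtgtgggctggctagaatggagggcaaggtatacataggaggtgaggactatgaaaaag
Cyp1b1: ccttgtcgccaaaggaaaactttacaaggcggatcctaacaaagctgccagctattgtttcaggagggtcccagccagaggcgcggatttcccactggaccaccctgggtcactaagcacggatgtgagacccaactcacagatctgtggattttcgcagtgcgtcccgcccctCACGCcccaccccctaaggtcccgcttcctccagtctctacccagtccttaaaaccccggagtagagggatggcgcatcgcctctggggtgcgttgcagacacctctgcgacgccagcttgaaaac
Tiparp: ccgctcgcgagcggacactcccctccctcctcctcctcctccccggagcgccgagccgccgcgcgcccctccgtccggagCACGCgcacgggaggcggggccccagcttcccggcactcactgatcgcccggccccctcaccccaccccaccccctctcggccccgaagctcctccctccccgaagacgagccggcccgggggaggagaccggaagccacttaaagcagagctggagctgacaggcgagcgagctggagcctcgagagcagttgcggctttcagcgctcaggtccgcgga
The motif began 54 bases before the Cyp1a1 start site on the forward strand, and on the reverse strand 76 bases before the Cyp1b1 start and 170 bases before the Tiparp start. The Cyp1a1 window, from 57697363, lies inside the span of the measured gene row, which starts at 57687928. Its RefSeq start site is therefore not the start of that row. The Inmt window held none, which says only that these letters are not in this window. Among the members not printed, Ahrr held 3 matches, Arnt held 1 and Nqo1 held none. In the mouse, the response elements of Cyp1a1 that have been studied most lie farther upstream than this window.

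Wider lists of 75 genes with a row, 69 of them tested, gave the surroundings of the pathway. With AAV-FGF17 at day 14, 8 of the 69 passed (5 rose and 3 fell, beside the 9.62% of all genes), and at day 3 0 passed (limma, 6 at an unadjusted p under 0.05). The 8 calls became 2 without day 14 AAV-FGF17 library 3, control library 1 or control library 2. Against sham with control vector, 27 rose and 16 fell at day 3, and 28 rose and 14 fell at day 14. Among all tested genes 60.9% passed at day 3 (45.9% higher and 15% lower) and 50% at day 14 (41% higher and 9% lower). The MI comparisons depend on scaling, because the median of all tested genes was 0.254 log2 above sham at day 3 and 0.25 at day 14 as deposited, and -0.013 and 0.011 after median-of-ratios scaling. All-gene calls went from 5535 higher and 1802 lower to 3609 and 3602 at day 3, and from 4940 and 1085 to 2947 and 2693 at day 14.

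Among the receptor's chaperones and partners, 10 genes tested, Hsp90ab1, the HSP90 beta subunit, rose with AAV-FGF17 at day 14 by 0.30 ± 0.0742 log2 (adjusted p = 0.0188), from 381 ± 20.6 to 470 ± 33.7 FPKM (SD, n = 3 each). Against sham, 5 rose and 1 fell at each day, which became 1 and 2 at day 3 and 0 and 3 at day 14 after median-of-ratios scaling. Src, a kinase found in the cytoplasmic receptor complex, was 1.0 ± 0.194 log2 higher at day 3 (adjusted p = 0.000252). The coactivator gene Ncoa1 fell by 0.36 on the log2 scale there (SE 0.0934, adjusted p = 0.00309).

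Of the 4 tested bHLH-PAS relatives, Hif1a, the hypoxia-inducible factor that also pairs with ARNT, rose at day 3 by 1.59 ± 0.0985 log2 (adjusted p = 4.6e-10) and at day 14 by 0.97 ± 0.106 (adjusted p = 1.59e-06). It was lower with AAV-FGF17 at day 14, at 18.3 ± 1.83 against 26.8 ± 4.26 FPKM (SD, n = 3 each; -0.52 ± 0.114 log2, adjusted p = 0.0107). Epas1, encoding HIF-2 alpha, fell by 0.67 on the log2 scale at day 3 (SE 0.0788, adjusted p = 1.3e-06), and was at 0.19 ± 0.0851 at day 14 (adjusted p = 0.0718). Arntl2 and Npas2, clock-related members of the family, stayed below 1 FPKM in every library. Macrophage markers, all 12 with a row, rose with Hif1a, from a sum of 283 to 310 FPKM in sham libraries to 1510 to 1780 FPKM at day 3 and 878 to 1340 FPKM at day 14 with control vector, against 726 to 773 FPKM at day 14 with AAV-FGF17. Their part in the Hif1a values was not tested.

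Of 9 tested genes that the receptor can also induce, 5 rose and 2 fell against sham at day 3, and 4 rose and 2 fell at day 14 (4 and 2, and 3 and 2, after median-of-ratios scaling). The amino acid transporter gene Slc7a5 rose by 1.43 ± 0.143 log2 at day 3 (adjusted p = 1.68e-07), and the glucuronosyltransferase genes Ugt1a7c and Ugt1a6a, which share exons so that reads may be split between them, rose by 2.22 ± 0.237 and 1.89 ± 0.274 (adjusted p = 3.91e-07 and 1.33e-05). Ugt1a7c was at 0.728 ± 0.139 FPKM in sham hearts and 5.32 ± 1.42 FPKM at day 3 with control vector (SD, n = 4 each), in the opposite direction to Cyp1a1. The glutathione transferase genes Gsta2 and Gsta1, which are nearly identical in sequence, fell at day 14, with log2 changes of -1.51 ± 0.274 and -1.53 ± 0.282 (adjusted p = 0.000246 and 0.000271), in the same direction as Cyp1a1. Gsta2 rose with AAV-FGF17 at day 14 by 1.25 ± 0.293 (adjusted p = 0.016), though at levels of 0.0805 ± 0.14 and 0.869 ± 0.238 FPKM (SD, n = 3 each). The Gsta1 change was 0.86 ± 0.301 (adjusted p = 0.0788). Cyp1a2, the hepatic relative of Cyp1a1, was not analysed here.

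Tryptophan and indole metabolism, which makes receptor ligands, had 6 tested genes. Against sham 1 rose and 3 fell at day 3, and 0 rose and 2 fell at day 14 (1 and 4, and 0 and 2, after median-of-ratios scaling). Maob, a monoamine oxidase gene, fell by 0.91 on the log2 scale at day 3 (SE 0.14, adjusted p = 2.63e-05), whereas Maoa rose by 0.61 ± 0.144 (adjusted p = 0.00144). Kyat3, a kynurenine aminotransferase gene, fell by 0.60 and 0.58 at the 2 days (adjusted p = 4.89e-05 and 0.000246). Haao stayed below 1 FPKM in every library. No gene of the list passed with AAV-FGF17 at day 14 (limma, 1 at an unadjusted p under 0.05).

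The methyltransferases for small molecules, 5 tested genes beside Inmt, split in direction. Nnmt, which methylates nicotinamide, rose at day 3 by 1.94 ± 0.194 (adjusted p = 1.75e-07) and at day 14 by 1.62 ± 0.209 (adjusted p = 9.03e-06), and its vector change at day 14 was -0.47 ± 0.224 (adjusted p = 0.187). The list counted 2 rises and 1 fall at each day, against 1 and 3, and 2 and 2, after median-of-ratios scaling.

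Among the 17 tested other cytochrome P450 genes, 6 rose and 5 fell against sham at day 3 and 11 rose and 2 fell at day 14 (5 and 6, and 7 and 2, after median-of-ratios scaling). Cyp4f18, a fatty acid hydroxylase gene of leukocytes, rose by 3.09 ± 0.199 log2 at day 3 (adjusted p = 7.29e-10) beside the macrophage markers given above, and their part in it was not tested. With AAV-FGF17 at day 14, Cyp2u1 rose by 0.56 ± 0.117 (adjusted p = 0.0087). Cyp26a1, a retinoic acid hydroxylase gene, fell, with a log2 change of -0.72 ± 0.174 (adjusted p = 0.0176), a call lost when FPKM were rescaled to a common total (-0.91, adjusted p = 0.0738) or without mitochondrially encoded genes (-1.01, adjusted p = 0.057). Cyp2e1, which oxidises ethanol and other small molecules, fell, with a log2 change of -1.42 ± 0.362 (adjusted p = 0.0215), at 13.9 ± 3.82 FPKM with control vector and 4.78 ± 0.901 FPKM with AAV-FGF17 (SD, n = 3 each). Cyp1a1 and Cyp2e1 moved in opposite directions in the same libraries. The summed level of the 5 adipocyte markers with a row also averaged less with AAV-FGF17, at 27.3 ± 8.34 and 15 ± 4.07 FPKM (SD, n = 3 each). Ucp1, in that list, went the other way, at 4.48 and 5.24 FPKM. The part of cell content in the Cyp2e1 values was not tested.

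The P450 redox partners had 8 tested genes, with 3 rises and 1 fall against sham at day 3 and 3 and 2 at day 14 (2 and 3, and 2 and 2, after median-of-ratios scaling). None passed with AAV-FGF17 at day 14 (limma, 4 at an unadjusted p under 0.05; Por, the reductase that feeds electrons to Cyp1a1, was at 0.32 ± 0.148 log2, adjusted p = 0.175). The NRF2-dependent genes had 10 tested genes, with 4 rises and 2 falls at day 3 and 2 and 4 at day 14 (2 and 4, and 1 and 6, after median-of-ratios scaling). Hmox1, the haem-degrading enzyme, rose at day 3 by 4.28 ± 0.179 (adjusted p = 4.54e-12), from 8.25 ± 1.75 to 169 ± 28.6 FPKM (SD, n = 4 each), and the glutathione transferase gene Gstm1 fell by 1.19 on the log2 scale (SE 0.122, adjusted p = 2.49e-07). Gstm1 rose with AAV-FGF17 at day 14 by 0.61 ± 0.141 (adjusted p = 0.0145). Nqo1, which NRF2 also controls, lay with Gstm1 and not with Hmox1 in its direction at day 3.

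Across the 18 libraries, the genes nearest to Cyp1a1 in shape and size of change were taken among 7054 tested genes with a group mean of at least 5 FPKM, by the root mean square difference of log2(FPKM + 0.5) centred on each gene's mean. The nearest was Inmt, at 0.902 log2. Others among the 6 nearest were Slc26a10 (1.16), Ogdhl, encoding an oxoglutarate dehydrogenase-like enzyme (1.18), Pnpla2, the triglyceride lipase gene (1.19), and Acot1, an acyl-CoA thioesterase gene nearly identical to Acot2 (1.21). These genes were chosen for likeness, so their values are a description. Inmt and Cyp1a1 were moreover both selected for levels that differed from sham in these data, so their nearness is not independent of that choice. Pnpla2 averaged 140.7, 42.36, 45.43, 52.15 and 111.03 FPKM in sham hearts, at day 3 with control vector and AAV-FGF17, and at day 14 with control vector and AAV-FGF17.

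The genes nearest to Inmt included Pnpla2 (0.642), Ogdhl (0.645), Slc26a10 (0.68), Trim54, a muscle ubiquitin ligase gene (0.693) and G0s2, an inhibitor of the lipase that Pnpla2 encodes (0.705). Cyp1a1 ranked 85 in that order. The distances of these genes from Inmt, 0.642 to 0.705, were all smaller than the 0.902 between Inmt and Cyp1a1. The measure counts the size of changes as well as their shape, and Cyp1a1 had a wider range than Inmt. The rank and distance of Cyp1a1 are therefore not a measure of shape alone. Cyp1b1, Tiparp and Nqo1 were not among the 6 nearest genes of either. Ahr and Arnt could not be, because their highest group means, 3.23 and 4.67 FPKM, lay below the 5 FPKM that candidates needed.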

How the data were processed

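RNA-seq of 18 mouse heart libraries in 5 groups was analysed from the deposited gene table of FPKM values, which the authors made from their reads. The submitters' processing notes name FastQC 0.11.7, cutadapt 1.17, HISAT2 2.1.0, StringTie 1.3.3 and build GRCm38, with no roles or settings, and RNA was taken with Trizol per the labels' protocols. Table columns were assigned to groups by the operation, vector and day in their names. Column numbers are used as library numbers and are not the replicate numbers of the titles. No 2 libraries held identical values (Pearson r across genes 0.887 to 0.9866).

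The 12988 gene rows were filtered to the 12052 that reached 1 FPKM in 3 or more libraries and tested as log2(FPKM + 0.5) with limma 3.58.1 in R 4.3.3 (group means over all libraries, moderated variance with trend, Benjamini-Hochberg over all tested genes). FPKM keep no depth, so no counting interval is given, and 13 symbols that occur on several rows were not used as list members. Exact permutation tests used scipy 1.17.1. The procedure was tested on simulated data. The 28 alternatives varied the pseudocount, filter, scaling, fit and libraries.

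The members and all gene lists were chosen with earlier results of these data known. Members are named in every comparison. From each wider list at most 4 genes with the smallest p in a comparison and those listed near 0 are named, and from likeness to Cyp1a1 and to Inmt the 6 nearest genes each. Some genes that this rule names are not reported here.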

Additional observations from a re-analysis of the deposited data

Results flagged for a closer look

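The FGF17 effect on Cyp1a1 differed between days, with a day 14 minus day 3 difference of 3.79 log2 (SE 0.574, limma adjusted p = 0.0265). The call was lost with FPKM rescaled to a common total (adjusted p = 0.0546), with the library number as a replicate block (adjusted p = 0.0519) and without any of 4 libraries (adjusted p 0.0517 to 0.0734). Its control libraries were part of the choice of Cyp1a1. Every day 14 AAV-FGF17 library was above every day 14 control library, while at day 3 the groups overlapped.

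In 3 of 21 sets of 4 libraries, the highest library stood far from the others by Dixon's criterion for 4 samples at the 95% level, where chance flags about 1 in 20. Cyp1a1 was at 0.504 FPKM in MI day 3 AAV-FGF17 library 3 and at 0.237 to 0.280 FPKM in the others (gap over range 0.839). Cyp1b1 was at 5.87 FPKM in sham library 2 and at 3.34 to 3.65 FPKM in the others (0.877). Arnt was at 5.37 FPKM in sham library 1 and at 3.48 to 3.79 FPKM in the others (0.838).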

How the results depend on the processing

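Cyp1a1 kept its direction and its call in all 28 alternatives for the day 14 vector comparison (2.61 to 3.58 log2, adjusted p 0.000816 to 0.0341) and for day 14 against day 3 with AAV-FGF17 (3.47 to 5.05). Leaving out a sham or day 3 library could not move the day 14 vector change, which stayed at 3.15, and altered only its adjusted p. The choice of Cyp1a1 on these data is not removed by any alternative. Whether library numbers pair the libraries is not settled. Of 29 same-number pairs across groups, 6 had r over 0.1 (r -0.155 to 0.366, median 0.0146). Of 100 pairs with different numbers, 9 did (r -0.318 to 0.226, median -0.00363). With the library number as a replicate block, 1 member was called in the day 14 vector comparison (Inmt 1.46, adjusted p = 0.0523), 0 in the difference of vector effects (Cyp1a1 3.36, adjusted p = 0.0519), and 700 and 0 of all genes. With only the groups compared in the fit, 1 member (Inmt adjusted p = 0.101), 3 wider-list genes and 104 of all genes passed at day 14, and 10 genes in the difference of vector effects. Rescaling to a total of 1000000 left 0 members and 0 genes in that difference (Cyp1a1 4.46, adjusted p = 0.0546), where a pseudocount of 0.1 gave 16 genes, median-of-ratios scaling 76 and removal of mitochondrially encoded genes 72, beside 44 as reported. With a filter at 5 FPKM fewer genes were tested, giving 18 calls for the day 3 vector comparison, 4645 and 3715 for MI against sham at day 3 and day 14, and 28 wider-list genes at day 3. Tiparp in day 14 AAV-FGF17 hearts against sham went from 0.22 to -0.01 with median-of-ratios scaling. Leaving out each library in turn gave 1 to 2 members and 2 to 11 wider-list genes for the day 14 vector comparison, 0 to 2 members for the difference of vector effects, and, over all genes, 10 to 41, 229 to 1679 and 0 to 193 for the day 3 vector, day 14 vector and difference comparisons. Depth is unknown, so how far it limits the values below 1 FPKM cannot be stated.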
